A study of Mus musculus with 18 samples.

Results

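The chemokine ligands and receptors measured here were the genes of the deposited liver count table whose symbol began with Ccl, Cxcl, Ccr, Cxcr or Ackr and a number, or named a member of the small Cx3c and Xc families, and that held more than 100 reads summed over the 18 mice. 63 of the 35441 rows had such a symbol and 44 of them passed the read limit, so that 44 of the 14533 genes tested were members. There were 28 ligands and 16 receptors, and they held from 122 (Ccl22) to 95561 reads (Cxcl12). The members nearest the limit were Ccl22 with 122 and Ccl8 with 149 reads, and the rows nearest below it were Cxcr5 with 90 and Ccl12 with 78. Of the 19 rows left out, 5 had no read in any mouse and 14 had 1 to 90 reads, among them the receptors Ccr3, Ccr4, Ccr6, Ccr8 and Ccr10.

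Chemokines are small proteins that guide leukocytes along a concentration gradient by binding receptors that couple to inhibitory G proteins. CC and CXC chemokines are named for the spacing of their first cysteines, and CXC chemokines that carry an ELR motif mainly attract neutrophils through CXCR2, whereas CCL2 and its relatives attract monocytes through CCR2. Atypical receptors bind chemokines without this G protein signal and remove or transport them. In the liver, Kupffer cells, sinusoidal endothelium, stellate cells, cholangiocytes and hepatocytes all release chemokines, and the recruitment of monocytes and neutrophils is a recognised feature of liver injury.

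Lysosomal acid lipase, encoded by Lipa, breaks down cholesteryl esters and triglycerides in lysosomes, and its loss fills hepatocytes and macrophages with lipid. The study sequenced poly-A RNA from whole livers of male mice on a C57/BL6N background in 6 groups of 3 mice. The groups were WT mice without treatment, untreated Lipa-/- mice, and Lipa-/- mice treated with a recombinant adeno-associated virus of serotype 8 (rAAV8). Each was sampled in 2 arms, which the study names 12-weeks and 34-weeks after injection and the labels 3 and 8 months. The vector was injected into young adult mice and carried human LIPA cDNA behind the hAAT promoter, which is active in hepatocytes, so that only these cells were meant to make the enzyme. The Lipa-/- mice lacked exon 4 of Lipa in the whole body after deletion with a CMV-Cre. By the study's methods only 1 untreated mouse was alive at 34-weeks, and the others of the later arm were killed at humane endpoints. At most 1 of the 3 sequenced untreated mice of that arm was therefore collected at 34-weeks, and below 34-weeks names the arm. The labels do not say which of the sequenced mice were killed at an endpoint. Mouse 5 of the untreated group at 12-weeks carried another study code than the other mice of that time, and all mice of 34-weeks carried yet another one, so that time and study code cannot be told apart. Values of single mice are given in the order of their numbers, which were 1, 2 and 3 for WT mice at both times, 5, 8 and 9 for untreated and 10, 11 and 12 for treated Lipa-/- mice at 12-weeks, and 4, 5 and 6 and 9, 11 and 12 at 34-weeks.

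The libraries held between 17527848 and 25833134 reads, and 3 reads corresponded to 0.0946 to 0.291 CPM (reads scaled by library size and TMM factor). TMM factors ran from 0.587 to 1.69 and were lowest in the 3 treated libraries of 12-weeks. Mouse Lipa was at 202 to 323 CPM in WT and 16.7 to 37.0 CPM in Lipa-/- mice, and human LIPA was at 523 to 2746 CPM in treated mice, at 0 in untreated Lipa-/- mice and at up to 0.906 CPM in WT mice. The members took 0.0276 to 0.139% of a library's reads. Hepatocyte markers were read in every library, with a summed level of 57078 to 72909 CPM in WT, 35830.1 to 55217 in untreated and 55731 to 101864 in treated livers at 12-weeks, and of 53745 to 71645, 20618 to 46157 and 44425 to 71094 at 34-weeks.

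Many members sit next to each other in the genome. On the GRCm39 assembly, 8 ligands (Ccl2, Ccl7, Ccl8, Ccl5, Ccl9, Ccl6, Ccl3 and Ccl4) lay on chromosome 11 between 81926397 and 83555509, 6 CXC ligands (Cxcl5, Cxcl1, Cxcl2, Cxcl9, Cxcl10 and Cxcl11) on chromosome 5 between 90907186 and 92513344, and 7 receptors (Cx3cr1, Ackr2, Ccr9, Cxcr6, Xcr1, Ccr1 and Ccr2) on chromosome 9 between 119877749 and 123913594. Ccl27a, Ccl21b, Ccl19 and Ccl21a lay in a duplicated stretch of chromosome 4, and reads of Ccl21a, Ccl21b and Ccl27a can be split among near-identical copies, so their counts are uncertain. Exons of Cxcl16 share 2213 bases with Med11 and 2132 with Zmynd15 on the opposite strand. Those of Cxcl11 share 1582 of 3794 bases with a pseudogene, which adds the same kind of doubt to both genes. It also holds for further members that share exon bases with other genes. Among them are Ackr4 (1663 of 8175 bases, with Acad11) and Ackr1 (361 of 1405, with Cadm3 on the same strand). Others are Ccl3 (276 of 776) and Cxcl5 (523 of 1896), each with a non-coding gene on the opposite strand.

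The promoters of the members were read because several of these ligands are textbook targets of the transcription factors NF-kB and interferon-activated STATs, and the windows below hold the matches nearest to ligands and a receptor described in the results. The 250 bases before the annotated start (RefSeq sequences, GRCm38.p6) were available for 34 members and searched on both strands. The NF-kB consensus was found in 7 of the 34 (20.6%: Ccl9, Ccl20, Cxcl1, Cxcl2, Cxcl10, Ccr1 and Ackr2), against 2225 of 27025 genes (8.23%). The interferon-stimulated response element (GAAA, any 2 bases and GAAA) was found in 3 members (8.82%, Ccl19, Cxcl10 and Cxcl14) against 3.46% of genes, and the STAT element TTCNNNGAA in 1 (2.94%, Cxcl14) against 8.13%. In the lines below each window reads 5′ to 3′ along the gene's strand and capitals mark the NF-kB match, which ended 71 bases before the start in Ccl20, 61 in Cxcl1, 87 in Cxcl2, 26 in Ccl9, 65 in Ccr1 and 94 in Cxcl10. A match is a run of letters and was not tested for binding.
Cxcl1, chr5:90891144-90891214, plus strand: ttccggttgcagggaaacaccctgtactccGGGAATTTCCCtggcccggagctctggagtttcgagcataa
Cxcl2, chr5:90903772-90903842, plus strand: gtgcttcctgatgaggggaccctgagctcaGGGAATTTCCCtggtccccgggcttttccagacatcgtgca
Cxcl10, chr5:92348953-92349078, minus strand: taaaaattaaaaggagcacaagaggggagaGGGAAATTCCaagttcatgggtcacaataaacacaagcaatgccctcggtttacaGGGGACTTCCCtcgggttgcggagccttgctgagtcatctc
Ccl20, chr1:83116656-83116725, plus strand: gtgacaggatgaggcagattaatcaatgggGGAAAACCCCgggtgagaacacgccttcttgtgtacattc
Ccl9, chr11:83578637-83578701, minus strand: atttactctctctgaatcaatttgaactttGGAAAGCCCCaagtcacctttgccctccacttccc
Ccr1, chr9:123968727-123968796, minus strand: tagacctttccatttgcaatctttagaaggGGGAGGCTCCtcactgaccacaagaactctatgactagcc

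Cxcl12, which holds CXCR4-bearing cells in place, was the most abundant member per length in WT livers, with a level of 73.7 ± 8.34 TPM (a length-scaled share of a library's transcripts, mean ± SD, n = 3) at 12-weeks. It made up 38.8% of the TPM of all members there, followed by Ccl9 (level 37.2 TPM), Ccl27a (28.5 TPM) and the neutrophil attractant Cxcl1 (10.3 TPM). At 34-weeks the same 4 ligands led in WT livers, with Cxcl12 at 40.4%. In untreated Lipa-/- livers Cxcl12 made up 19.1% of the member TPM at 12-weeks and 22.3% at 34-weeks, and the CCR1 ligand Ccl6 (levels 70.1 and 93.9 TPM) and the CCR2 ligand Ccl2 (39.8 and 92.4 TPM) had joined the leading members. Summed over all members, the level was 190.0 ± 9.75 TPM in WT, 761 ± 153 in untreated and 425 ± 178 in treated mice at 12-weeks, and 259.8 ± 41.2, 1002 ± 191 and 305 ± 67.9 TPM at 34-weeks. The 16 receptors together reached 3.90 ± 0.592 TPM in WT and 67.5 ± 27.1 TPM in untreated Lipa-/- mice at 12-weeks, and 7.69 ± 2.74 and 79.3 ± 27.2 TPM at 34-weeks. In treated mice the receptors stood at 12.2 ± 3.15 and 13.8 ± 7.71 TPM. TPM values are shares of a library without TMM scaling and serve to compare levels between genes. The sums by group are therefore descriptive, and differences between groups rest on the tests and CPM below, which used TMM scaling. Cxcl12 at 12-weeks was at 73.7 TPM in WT and 146 TPM in untreated mice, but at 188 and 238 CPM, and was not called.

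**Figure D1:**
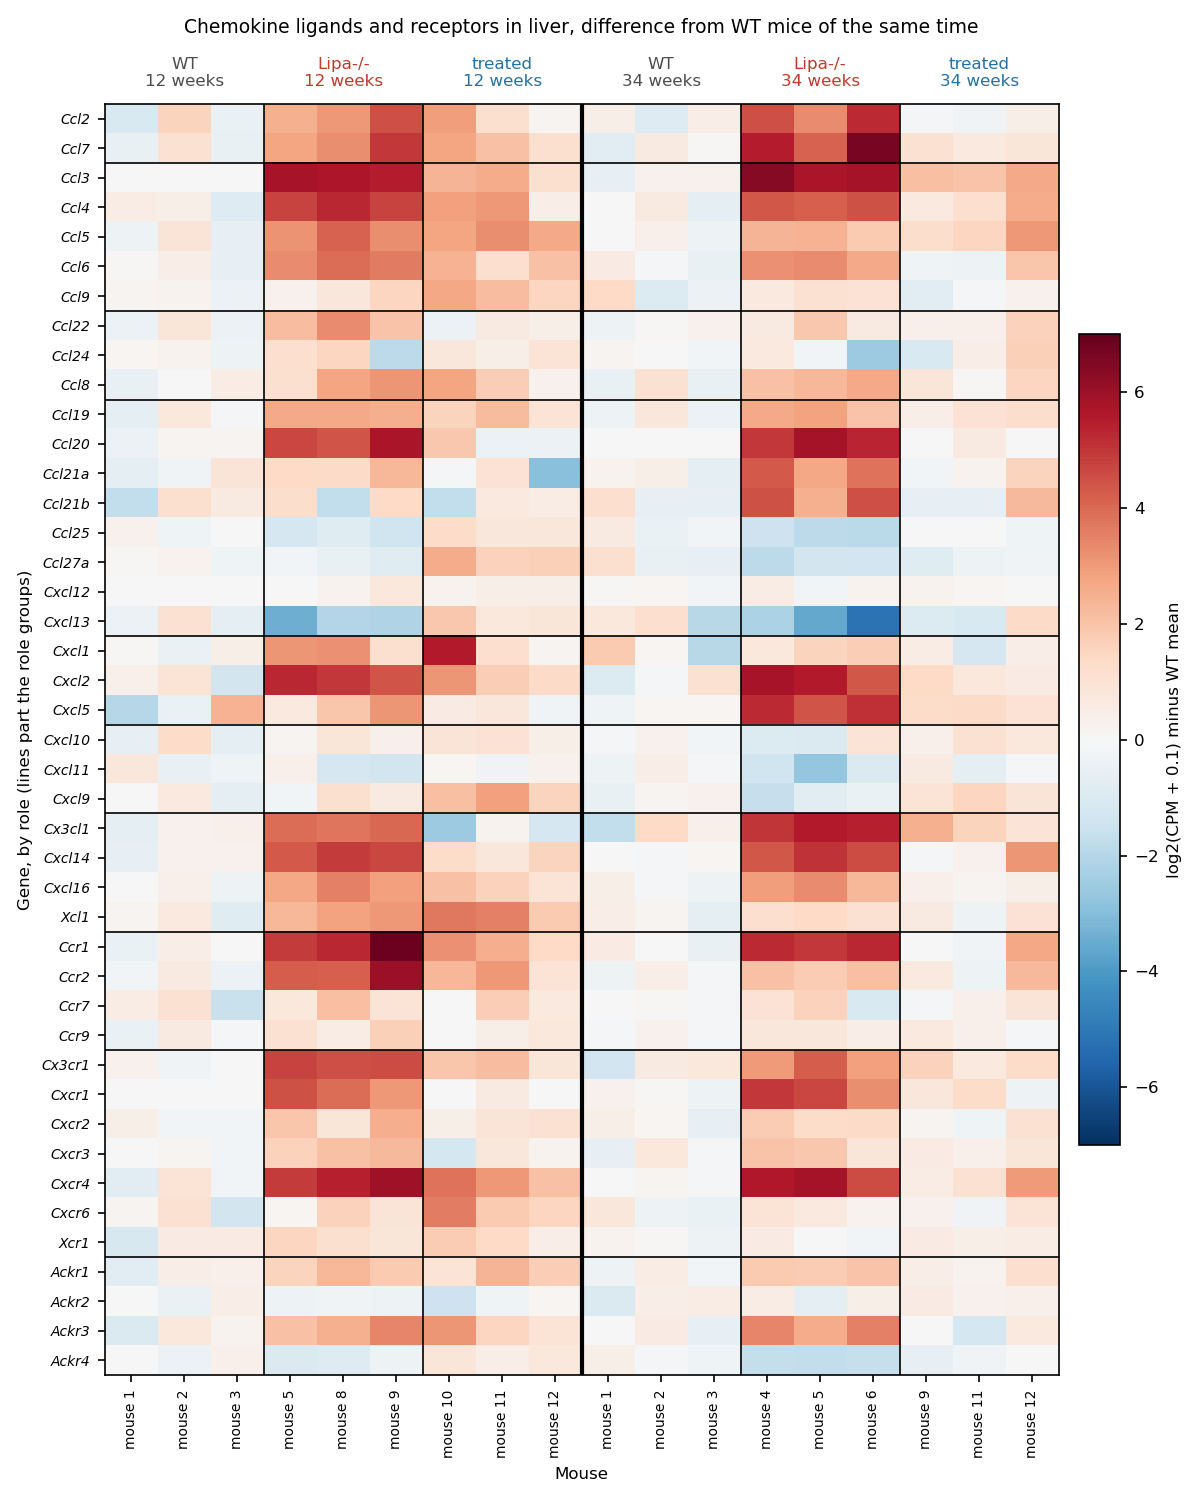
Level of 43 members in each of the 18 mice, as log2(CPM + 0.1) minus the mean of the 3 WT mice of the same time (red higher, blue lower, colour range -7 to 7), with rows ordered by role and columns by group. Red rows run through both untreated Lipa-/- groups, most fade in the treated groups, and Ccl25 and Cxcl13 are blue in the untreated mice.

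Loss of Lipa went with higher levels of most members at both times. At 12-weeks 24 of the 44 members were called higher in untreated Lipa-/- than in WT mice (54.5%, against 20.2% of all genes tested) and 2 lower (4.55%, against 9.06%), where called means an adjusted p under 0.05 and an absolute log2 fold change over 1. At 34-weeks 25 were called higher (56.8%, against 20.5%) and 5 lower (11.4%, against 15.7%). The median log2 fold change of the members was 2.44 at 12-weeks and 1.99 at 34-weeks, against 0.02 and -0.03 over all genes tested. These comparisons used different mice, and 22 members were called higher in both and 2, Ccl25 and Cxcl13, lower in both. Among the ligands 15 of 28 were higher at 12-weeks and 16 at 34-weeks, and among the receptors 9 of 16 at each time. In whole liver a gene read from infiltrating cells can rise because more such cells are present or because each holds more RNA, and these cannot be told apart here.

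Markers of monocytes, macrophages and neutrophils were higher in untreated Lipa-/- mice, as were most members. All 6 monocyte and macrophage markers were called higher in untreated Lipa-/- mice at both times, with a summed level of 46.8 to 135 CPM in WT and 2509 to 6154 CPM in untreated mice at 12-weeks and of 96.3 to 220.4 and 2196 to 3624 CPM at 34-weeks. In treated mice the sum was 528 to 2240.5 CPM at 12-weeks and 162 to 498 CPM at 34-weeks. Neutrophil markers were called higher for 8 of 8 at 12-weeks and 6 of 8 at 34-weeks, and their sum was 0.681 to 2.30 CPM in WT mice, where Ly6g, Camp, Ngp and Mpo were at 0, and 126 to 1648 CPM in untreated mice at 12-weeks. At 34-weeks it was 1.05 to 5.66 CPM in WT mice, with Ly6g and Camp at 0, and 109.6 to 281 CPM in untreated mice. In treated against untreated mice 6 of these 8 markers were called lower at 12-weeks and 0 at 34-weeks, where treated mouse 12 was highest. The part of these cells in the results on chemokines was not tested.

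**Figure D2:**
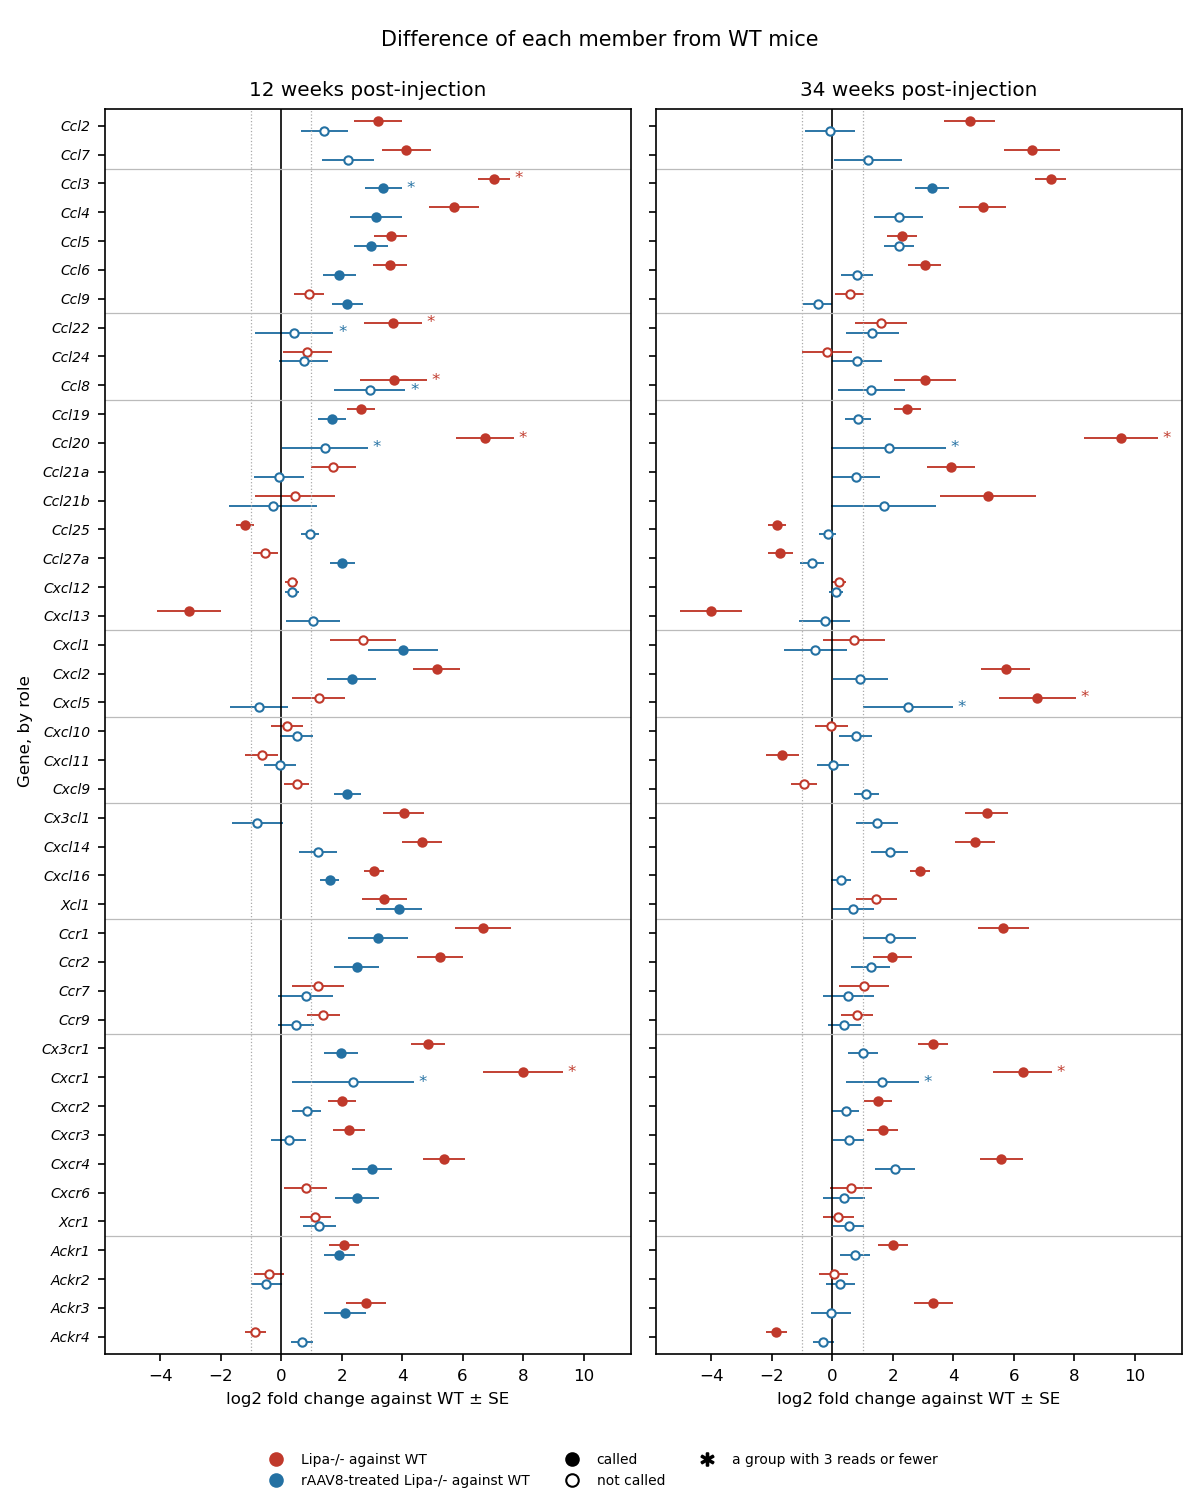
Log2 fold change against WT mice (± SE) of 43 members at 12-weeks and 34-weeks, in red for untreated and in blue for rAAV8-treated Lipa-/- mice, filled where called, with a star where 1 group held 3 reads or fewer and dotted lines at -1 and 1. Untreated mice had 24 and 25 filled points to the right of the dotted line, and treated mice had 19 at 12-weeks and 1 at 34-weeks.

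In treated mice part of these differences from WT was still called at 12-weeks and few were called at 34-weeks. Treated Lipa-/- mice had 20 members called higher than WT mice at 12-weeks (45.5%, against 13.6% of all genes) and 0 lower in edgeR (against 12.0%), with 0 lower also at an unadjusted p under 0.05 and in DESeq2. At 34-weeks 1 member, Ccl3, was called higher (2.27%, against 0.131%) and 0 lower (against 0.0895%), with 8 higher and 0 lower at an unadjusted p under 0.05 and 2 higher and 0 lower in DESeq2. The members still leaned above WT, with a median log2 fold change of 0.78 at 34-weeks against 0.00 over all genes. At 12-weeks this median was 1.60 against 0.06. At 34-weeks 10 members lay above WT without overlap and 0 below, where 8.89% of all genes did not overlap in either direction. Set against untreated Lipa-/- mice, treated mice had 7 members called higher (15.9%, against 16.2%) and 17 lower (38.6%, against 25.3%) at 12-weeks, and 6 higher (13.6%, against 12.8%) and 20 lower (45.5%, against 18.6%) at 34-weeks. Scaled to library totals, the split of the former comparison was 3 higher and 24 lower. WT mice are shared by the comparisons with WT, and untreated mice by those with untreated mice, so these counts are set side by side and are not independent. The count against WT at 12-weeks rested on single libraries: it was 9 without WT mouse 3 and 11 without treated mouse 10, and the call at 34-weeks was lost without WT mouse 2 (adjusted p = 0.0712), WT mouse 3 (adjusted p = 0.109) or treated mouse 12 (adjusted p = 0.0730).

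The CCR2 ligands Ccl2 and Ccl7, which draw monocytes out of the blood, were both higher in untreated Lipa-/- mice at both times. Ccl2 was at 0.643, 4.50 and 1.05 CPM in WT and 8.87, 13.0 and 35.5 CPM in untreated mice at 12-weeks. Ccl2 in treated mice was at 12.0, 3.31 and 1.69 CPM. Untreated mice exceeded WT mice 9.16-fold at 12-weeks (log2 fold change 3.19 ± 0.79 (SE), adjusted p = 0.00428). At 34-weeks Ccl2 was at 1.83, 0.670 and 1.87 CPM in WT and 32.6, 14.3 and 54.0 CPM in untreated mice (23.3-fold, log2 fold change 4.54 ± 0.84 (SE), adjusted p = 3.11e-04). Treated mice then had 1.18, 1.09 and 1.83 CPM of Ccl2. The untreated mice lay above the WT mice without overlap at both times, and mouse 9 at 12-weeks and mouse 6 at 34-weeks were the highest. Treated mice overlapped with WT mice, with log2 fold changes against WT of 1.42 ± 0.78 (SE), adjusted p = 0.160 at 12-weeks and -0.07 ± 0.82 (SE), adjusted p = 0.999 at 34-weeks. Against untreated mice the treated mice were lower at 34-weeks (log2 fold change -4.61 ± 0.84 (SE), adjusted p = 3.53e-04), and the difference at 12-weeks did not pass (-1.78 ± 0.75 (SE), adjusted p = 0.0545).

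Ccl7, a neighbour of Ccl2 that binds the same receptor, moved by more at a lower level. It was at 0, 0.158 and 0.0779 CPM in WT and 7.44, 2.86 and 16.4 CPM in untreated mice at 34-weeks. Ccl7 in treated mice was at 0.244, 0.164 and 0.195 CPM. The untreated mice exceeded WT mice 96.8-fold (log2 fold change 6.60 ± 0.94 (SE), adjusted p = 2.71e-05). The WT mice held 6 reads of Ccl7 in all, which limits the precision of this fold. At 12-weeks the levels were 0.107, 0.526 and 0.105, 1.95, 2.72 and 8.97 and 1.94, 1.14 and 0.537 CPM (log2 fold change 4.14 ± 0.82 (SE), adjusted p = 7.93e-04 for untreated against WT mice). No untreated mouse overlapped with a WT or treated mouse at either time. The treated mice lay below the untreated ones at 34-weeks (log2 fold change -5.42 ± 0.85 (SE), adjusted p = 8.91e-05) and at 12-weeks (log2 fold change -1.93 ± 0.72 (SE), adjusted p = 0.0317). The last call for Ccl7 was lost without untreated mouse 9 (adjusted p = 0.251), treated mouse 11 (adjusted p = 0.0802) or treated mouse 12 (adjusted p = 0.106). A fit of only the 6 mice compared ended it too (-1.91, adjusted p = 0.0545).

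Among the ligands of CCR1 and related receptors, which act on monocytes, macrophages and T cells, 4 of 5 were higher in untreated mice at both times and Ccl9 was the exception. Ccl3 was near the limit of detection in WT mice, at 0.0536, 0.0479 and 0.0523 CPM at 12-weeks from 3 reads in all, and at 8.09, 7.57 and 6.75 CPM in untreated mice (adjusted p = 6.96e-08). Its levels at 34-weeks were 0, 0.0788 and 0.0779 CPM in WT and 12.3, 7.77 and 8.38 CPM in untreated mice (log2 fold change 7.22 ± 0.51 (SE), adjusted p = 5.31e-08). Treated mice held a little Ccl3, at 0.680, 0.815 and 0.230 and 0.528, 0.492 and 0.817 CPM at the respective times. These values lay above every WT mouse (adjusted p = 0.00272 and 0.0156) and below every untreated mouse (log2 fold change -3.66 ± 0.40 (SE), adjusted p = 4.84e-06 at 12-weeks, and -3.93 ± 0.39 (SE), adjusted p = 1.42e-06 at 34-weeks).

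Ccl4, a close relative of Ccl3, was at 0.161, 0.144 and 0 CPM in WT and 4.90, 7.22 and 4.73 CPM in untreated mice at 12-weeks. Ccl4 in treated mice was at 1.26, 1.41 and 0.153 CPM. Untreated mice exceeded WT mice at 12-weeks (log2 fold change 5.71 ± 0.82 (SE), adjusted p = 4.03e-05) and at 34-weeks (log2 fold change 4.97 ± 0.78 (SE), adjusted p = 6.49e-05). Treated mice were called higher than WT mice at 12-weeks (log2 fold change 3.15 ± 0.86 (SE), adjusted p = 0.0123) although treated mouse 12 overlapped with them, and the call was lost without WT mouse 3 (adjusted p = 0.0575) or treated mouse 10 (adjusted p = 0.0507). At both times the treated mice were lower than the untreated mice (-2.55 ± 0.65 (SE), adjusted p = 0.00370, and -2.78 ± 0.65 (SE), adjusted p = 0.00245).

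Ccl5, made by T cells and NK cells among others, differed from Ccl3 and Ccl4 in the treated mice. It was at 0.322, 0.909 and 0.262 CPM in WT and 4.65, 9.24 and 4.93 CPM in untreated mice at 12-weeks. Ccl5 in treated mice was at 3.50, 5.11 and 3.30 CPM. Both Lipa-/- groups were called higher than WT (3.62 ± 0.55 (SE), adjusted p = 6.78e-05 for untreated mice, and 2.97 ± 0.55 (SE), adjusted p = 0.00277 for treated mice). At 34-weeks the levels were 1.12, 1.46 and 0.856, 6.37, 6.45 and 4.26 and 2.72, 3.39 and 9.73 CPM, with untreated mice called higher than WT (log2 fold change 2.31 ± 0.50 (SE), adjusted p = 0.00114). Treated and untreated mice overlapped at both times, and their difference did not pass (-0.65 ± 0.47 (SE), adjusted p = 0.249, and -0.11 ± 0.46 (SE), adjusted p = 0.877). The T and NK cell markers had a summed level of 14.0 to 29.0 and 10.9 to 22.2 CPM in treated mice at 12- and 34-weeks, beside 12.6 to 17.8 and 8.82 to 21.8 CPM in untreated and 3.51 to 8.33 and 2.80 to 6.15 CPM in WT mice. Of the 8 markers, 5 were called higher than WT in untreated and 5 in treated mice at 12-weeks. At 34-weeks these numbers were 4 and 1, none was at 0 in any group, and their part in the result was not tested.

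Ccl6 and Ccl9 are CCR1 ligands of rodents that lie side by side. Ccl6 was at 4.82, 6.32 and 2.93 CPM in WT and 44.7, 68.1 and 57.1 CPM in untreated mice at 12-weeks. Ccl6 in treated mice was at 24.5, 10.2 and 18.9 CPM. Ccl6 was higher in untreated than in WT mice (log2 fold change 3.59 ± 0.56 (SE), adjusted p = 9.78e-05). At 34-weeks Ccl6 was at 9.20, 5.91 and 4.28 CPM in WT and 57.9, 61.8 and 39.8 CPM in untreated mice (log2 fold change 3.05 ± 0.55 (SE), adjusted p = 2.40e-04). Ccl6 in treated mice was then at 4.92, 4.81 and 24.1 CPM. Treated mice stood between the others at 12-weeks, with a log2 fold change of 1.92 ± 0.54 (SE), adjusted p = 0.0136, against WT and -1.67 ± 0.52 (SE), adjusted p = 0.0129, against untreated mice. The former call was lost without WT mouse 3 (adjusted p = 0.0688) or treated mouse 10 (adjusted p = 0.0737) and the latter without treated mouse 11 (adjusted p = 0.0584). At 34-weeks treated mice were lower than untreated mice (log2 fold change -2.23 ± 0.53 (SE), adjusted p = 0.00273), and treated mouse 12 was the highest of its group.

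Ccl9 was highest in the treated mice of 12-weeks, at 411, 286 and 180.2 CPM against 71.4, 74.1 and 47.5 CPM in WT and 76.5, 111 and 176 CPM in untreated mice. It did not overlap with WT mice (log2 fold change 2.18 ± 0.51 (SE), adjusted p = 0.00677) or with untreated mice (log2 fold change 1.27 ± 0.49 (SE), adjusted p = 0.0391). For Ccl9 the last call was lost without untreated mouse 5 (adjusted p = 0.139), untreated mouse 8 (adjusted p = 0.0979), treated mouse 10 (adjusted p = 0.172) or treated mouse 11 (adjusted p = 0.0647). It was also lost with upper quartile factors (1.19, adjusted p = 0.0506) and under scaling to library totals (0.38, adjusted p = 0.450). At 34-weeks the treated mice were at 29.4, 46.3 and 60.3 CPM and overlapped with WT mice at 129.7, 25.1 and 36.6 CPM (log2 fold change -0.49 ± 0.49 (SE), adjusted p = 0.965). Untreated mice did not pass against WT at either time (0.91 ± 0.49 (SE), adjusted p = 0.155, and 0.57 ± 0.49 (SE), adjusted p = 0.358). Ccl9 was the only ligand of the 8 on chromosome 11 that was not called in untreated against WT mice.

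The ligands of CCR3, CCR4 and CCR8, which act on eosinophils and on helper and regulatory T cells, were low throughout. Ccl24, an eosinophil attractant made by macrophages, was at 1.55, 1.63 and 1.05 CPM in WT and 3.23, 4.12 and 0.323 CPM in untreated mice at 12-weeks. Ccl24 in treated mice was at 2.43, 1.90 and 2.76 CPM. Ccl24 was called in no comparison. Ccl8 and Ccl22 were each at or below 1.24 CPM in every mouse. Ccl8 was called higher in untreated than in WT mice at 12-weeks (adjusted p = 0.0129, 3 reads in the WT group) and 34-weeks (log2 fold change 3.07 ± 1.02 (SE), adjusted p = 0.0204), lost at 12-weeks without WT mouse 1 (adjusted p = 0.0536) and at 34-weeks without WT mouse 1 (adjusted p = 0.0650) or WT mouse 3 (adjusted p = 0.0767). Ccl22, a CCR4 ligand of dendritic cells and macrophages, was called higher at 12-weeks (adjusted p = 0.00553, 3 reads in the WT group) and not at 34-weeks (1.61 ± 0.86 (SE), adjusted p = 0.134). Of 6 eosinophil, basophil and mast cell markers, 2 passed the read limit (Prg2 and Siglecf), and both were called higher in untreated mice at 12-weeks and 1 at 34-weeks. The sum of the 6 was 0 to 0.262 CPM in WT, 1.56 to 3.88 in untreated and 0.307 to 1.75 in treated mice at 12-weeks. The sum was 0.0779 to 0.158, 1.31 to 1.86 and 0.122 to 3.46 CPM at 34-weeks. Epx, Prg2, Siglecf and Cpa3 were at 0 in WT mice at 12-weeks, and the part of these cells was not tested.

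**Figure D3:**
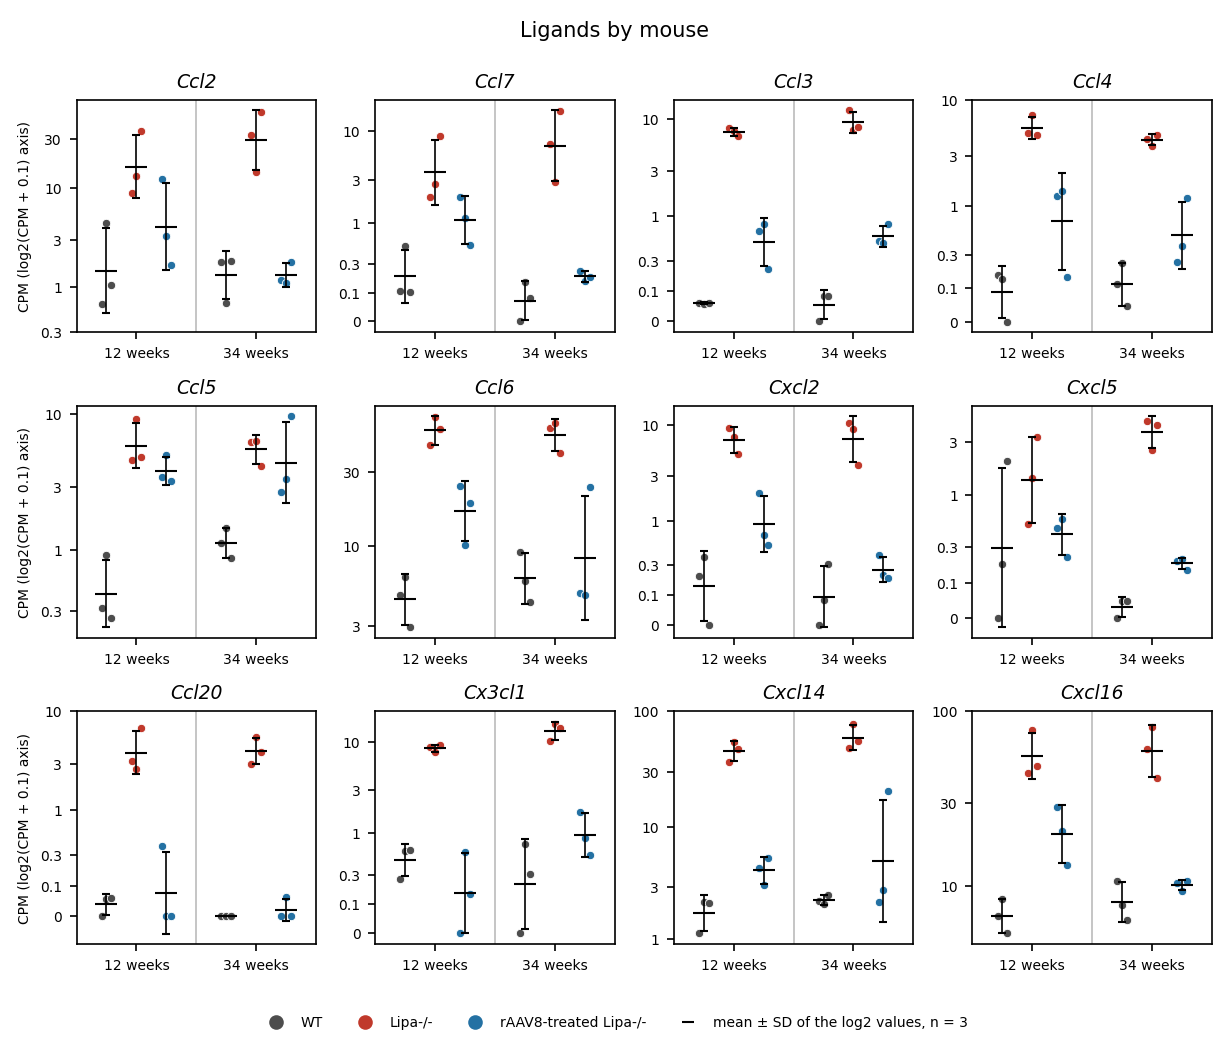
CPM of 12 ligands in each of the 18 mice on a log2(CPM + 0.1) axis labelled in CPM, by group, with bars for the mean ± SD of the log2 values (n = 3). In the panels of Ccl2, Ccl7, Ccl3 and Cxcl14 the points of the untreated mice lie above all WT points at both times.

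The ligands that guide cells into lymphoid tissue and mucosa did not move as a group. Of the 8 measured, 2 were called higher and 2 lower in untreated than in WT mice at 12-weeks, and 4 higher and 3 lower at 34-weeks. Ccl20, the ligand of CCR6, went from nearly no reads to a clear signal. Its reads numbered 2 in the 3 WT livers of 12-weeks and 0 in those of 34-weeks. Untreated mice had 3.23, 2.64 and 6.79 CPM at 12-weeks (adjusted p = 7.03e-05) and 3.00, 5.56 and 3.97 CPM at 34-weeks, where they were at least 30.4-fold higher than WT mice, counted against 3 reads in each WT library (adjusted p = 1.94e-05). Treated mice were at 0.389, 0 and 0 CPM at 12-weeks, from 4 reads in all, and at 0, 0.0546 and 0 CPM at 34-weeks, from 1 read, and lay below every untreated mouse (adjusted p = 2.52e-04 and 3.95e-05).

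Ccl19, Ccl21a and Ccl21b bind CCR7 on dendritic cells and T cells. Ccl19, shown here after its values were seen, had means of 0.684 ± 0.375 CPM in WT, 4.37 ± 0.249 CPM in untreated and 2.20 ± 0.988 CPM in treated mice at 12-weeks. Ccl19 was called higher in untreated mice at both times (2.65 ± 0.46 (SE), adjusted p = 2.33e-04, and 2.48 ± 0.44 (SE), adjusted p = 2.04e-04). Ccl21a was at 0.590, 0.670 and 0.272 CPM in WT and 11.5, 3.75 and 8.09 CPM in untreated mice at 34-weeks. Ccl21a in treated mice was at 0.406, 0.601 and 1.60 CPM. Untreated mice exceeded WT mice 15.2-fold (log2 fold change 3.93 ± 0.79 (SE), adjusted p = 6.24e-04). Treated mice were lower than untreated mice (log2 fold change -3.14 ± 0.75 (SE), adjusted p = 0.00280). The difference between untreated and WT mice at 12-weeks did not pass (1.73 ± 0.75 (SE), adjusted p = 0.0774). Ccl21b was at 0.236, 0 and 0 CPM in WT and 3.22, 0.734 and 3.38 CPM in untreated mice at 34-weeks. Ccl21b in treated mice was at 0, 0 and 0.623 CPM. Its calls against WT (5.15 ± 1.58 (SE), adjusted p = 0.0130) and between treated and untreated mice (-3.45 ± 1.34 (SE), adjusted p = 0.0486) were lost, the first without WT mouse 2 (adjusted p = 0.0503) or WT mouse 3 (adjusted p = 0.0529) and the second without untreated mouse 4 (adjusted p = 0.110), untreated mouse 6 (adjusted p = 0.104), treated mouse 9 (adjusted p = 0.133) or treated mouse 11 (adjusted p = 0.140). DESeq2 did not call the second difference of Ccl21b (-3.62, adjusted p = 0.171), nor did edgeR with length offsets (-3.46, adjusted p = 0.0544).

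Ccl25, Ccl27a and Cxcl13 went the other way. Ccl25, the ligand of the gut homing receptor CCR9, was at 6.22, 4.16 and 5.03 CPM in WT and 2.16, 2.72 and 1.86 CPM in untreated mice at 12-weeks. Ccl25 in treated mice was at 12.4, 8.86 and 8.82 CPM. At 34-weeks Ccl25 was at 7.96, 3.74 and 4.48 CPM in WT and 1.80, 1.39 and 1.29 CPM in untreated mice. Ccl25 stood at 5.24, 4.97 and 4.20 CPM in the treated mice of 34-weeks. The untreated mice were lower than WT without overlap at 12-weeks (log2 fold change -1.19 ± 0.29 (SE), adjusted p = 0.00414) and 34-weeks (log2 fold change -1.84 ± 0.30 (SE), adjusted p = 9.66e-05), and treated mice were higher than untreated mice (2.15 ± 0.30 (SE), adjusted p = 3.40e-05, and 1.68 ± 0.30 (SE), adjusted p = 2.80e-04). Under scaling to library totals, which shifted the all-gene median by 0.47 log2 units here, neither Ccl25 nor Cxcl13 was called lower at 12-weeks.

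Cxcl13, the B cell attractant that binds CXCR5, was at 1.29, 3.78 and 1.05 CPM in WT and 0.0710, 0.350 and 0.323 CPM in untreated mice at 12-weeks (log2 fold change -3.04 ± 1.05 (SE), adjusted p = 0.0291 for untreated against WT mice). Cxcl13 in treated mice was at 6.70, 2.99 and 3.22 CPM. At 34-weeks Cxcl13 was at 5.84, 7.96 and 0.817 CPM in WT and 0.662, 0.193 and 0 CPM in untreated mice (log2 fold change -4.02 ± 1.02 (SE), adjusted p = 0.00383). Treated mice then had 1.71, 1.58 and 8.79 CPM of Cxcl13. Every untreated mouse lay below every WT and treated mouse at both times, and treated mice were higher than untreated mice (4.09 ± 1.06 (SE), adjusted p = 0.00414, and 3.76 ± 1.01 (SE), adjusted p = 0.00686). The call against WT at 12-weeks was lost without WT mouse 2 (adjusted p = 0.139), untreated mouse 5 (adjusted p = 0.101), untreated mouse 8 (adjusted p = 0.0558) or untreated mouse 9 (adjusted p = 0.0596), and that between treated and untreated mice at 34-weeks without treated mouse 12 (adjusted p = 0.0618). B and plasma cell markers summed to 31.3 to 52.3 CPM in WT, 40.9 to 89.7 in untreated and 45.0 to 54.7 in treated mice at 12-weeks. Their sums at 34-weeks were 52.4 to 139.6, 44.6 to 155 and 46.8 to 128 CPM. Of these 6 markers, 2 were called higher in untreated mice at 12-weeks and 1 higher and 1 lower at 34-weeks, 3 were higher in treated than in WT mice at 12-weeks, and none was at 0 in any group.

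Ccl27a, a CCR10 ligand, was highest in the treated mice of 12-weeks, at 66.2, 33.5 and 34.2 CPM against 11.3, 13.0 and 8.74 CPM in WT and 9.51, 7.57 and 5.94 CPM in untreated mice. The tests of these treated mice gave 2.02 ± 0.41 (SE), adjusted p = 0.00396, against WT, and 2.54 ± 0.41 (SE), adjusted p = 1.31e-04, against untreated mice. At 34-weeks it was lower in untreated mice, at 3.44, 5.10 and 4.89 CPM, than in WT mice at 27.3, 8.83 and 8.37 CPM (log2 fold change -1.72 ± 0.41 (SE), adjusted p = 0.00228), and the call was lost without WT mouse 1 (log2 fold change -0.94). Treated mice at 34-weeks were at 7.11, 10.0 and 10.5 CPM, higher than untreated mice (1.04 ± 0.40 (SE), adjusted p = 0.0487). The last call for Ccl27a was lost without untreated mouse 4 (adjusted p = 0.191), untreated mouse 5 (adjusted p = 0.0768), untreated mouse 6 (adjusted p = 0.0824), treated mouse 11 (adjusted p = 0.114) or treated mouse 12 (adjusted p = 0.129). Other settings that ended it were library totals (0.51, adjusted p = 0.227), upper quartile factors (0.92, adjusted p = 0.0799) and DESeq2 (0.71, adjusted p = 0.175). It was also lost in edgeR with length offsets (0.75, adjusted p = 0.150). With only the 6 mice compared it fell at the fold limit (1.00, adjusted p = 0.0116). Cxcl12 was called in no comparison, with means of 188 ± 6.29 CPM in WT, 238 ± 65.8 CPM in untreated and 240.4 ± 14.3 CPM in treated mice at 12-weeks. The log2 fold changes of Cxcl12 in untreated against WT mice were 0.35 ± 0.22 (SE), adjusted p = 0.227, and 0.22 ± 0.22 (SE), adjusted p = 0.430. Markers of stellate cells and fibroblasts, where Cxcl12 is known to be made, summed to 90.8 to 179 CPM in WT, 413 to 545 in untreated and 281 to 594 in treated mice at 12-weeks. At 34-weeks they summed to 163 to 192, 674 to 1204 and 175 to 214 CPM. In untreated mice 2 of 5 were called higher and 1 lower at 12-weeks and 3 and 2 at 34-weeks.

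**Figure D4:**
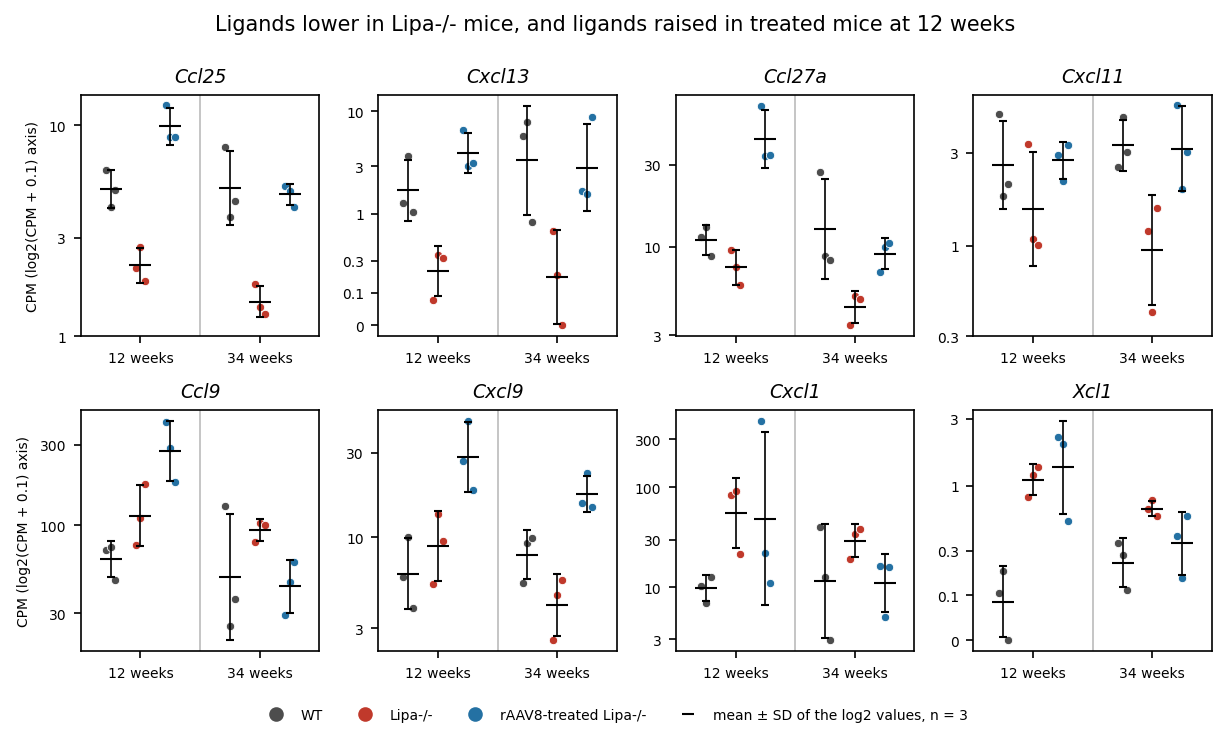
CPM of 8 further ligands in each of the 18 mice, drawn as in the plot of the 12 ligands, with bars for the mean ± SD of the log2 values (n = 3). Ccl25 and Cxcl13 are lowest in the untreated Lipa-/- mice at both times, and Ccl9, Ccl27a and Cxcl9 are highest in the treated mice of 12-weeks.

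Of the neutrophil attractants of CXCR2, Cxcl2 was called higher in untreated than in WT mice at both times, Cxcl5 at 34-weeks and Cxcl1 at neither. Cxcl2 was at 0.214, 0.383 and 0 CPM in WT and 9.33, 7.61 and 5.09 CPM in untreated mice at 12-weeks. Cxcl2 in treated mice was at 2.04, 0.706 and 0.537 CPM. The fold between untreated and WT mice was 35.3 (log2 fold change 5.14 ± 0.77 (SE), adjusted p = 6.28e-05). At 34-weeks Cxcl2 was at 0, 0.0788 and 0.311 CPM in WT and 10.6, 9.12 and 3.90 CPM in untreated mice (log2 fold change 5.73 ± 0.80 (SE), adjusted p = 2.07e-05). Cxcl2 in treated mice was then at 0.406, 0.219 and 0.195 CPM. No untreated mouse overlapped with WT or treated mice, and treated mice were lower than untreated mice (-2.80 ± 0.66 (SE), adjusted p = 0.00227, and -4.81 ± 0.74 (SE), adjusted p = 7.09e-05). Treated mice were still above WT mice at 12-weeks (2.34 ± 0.81 (SE), adjusted p = 0.0340). For Cxcl2 the last call was lost without WT mouse 1 (adjusted p = 0.0766), WT mouse 3 (adjusted p = 0.115) or treated mouse 10 (adjusted p = 0.209), and under library totals (1.93, adjusted p = 0.0718).

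Cxcl5 was at 0, 0.0394 and 0.0389 CPM in WT, from 2 reads in all, at 4.60, 2.55 and 4.26 CPM in untreated and at 0.203, 0.219 and 0.156 CPM in treated mice at 34-weeks (adjusted p = 3.05e-04 for untreated against WT and 0.00251 for treated against untreated mice). At 12-weeks WT mouse 3 had 2.04 CPM, the groups overlapped, and the difference did not pass (1.24 ± 0.87 (SE), adjusted p = 0.281). Cxcl1 varied widely between mice of a group. Its levels at 12-weeks were 10.4, 7.03 and 12.8 CPM in WT, 83.6, 91.4 and 21.7 CPM in untreated and 457, 22.0 and 11.1 CPM in treated mice, and at 34-weeks 40.5, 12.7 and 2.92, 19.1, 34.2 and 38.7 and 16.3, 5.03 and 16.1 CPM. Untreated mice lay above WT at 12-weeks without passing (2.70 ± 1.10 (SE), adjusted p = 0.0607) and overlapped at 34-weeks (0.72 ± 1.03 (SE), adjusted p = 0.594). The call of treated against WT mice at 12-weeks (4.02 ± 1.16 (SE), adjusted p = 0.0155) rested on treated mouse 10 at 457 CPM and was lost without WT mouse 3 (adjusted p = 0.0570) or treated mouse 10 (adjusted p = 0.566). The neutrophil marker sum was 5.90 to 66.8 CPM in treated mice at 12-weeks and 1.69 to 798 CPM at 34-weeks, highest in mice 10 and 12.

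The interferon-induced ligands of CXCR3, which attract activated T cells, were not called higher in untreated than in WT mice, with log2 fold changes of -0.65 to 0.51 at 12-weeks and -1.65 to -0.04 at 34-weeks. Cxcl10 was called in no comparison, with values of 2.25, 8.42 and 2.15 CPM in WT, 4.01, 6.29 and 4.45 CPM in untreated and 6.51, 7.06 and 4.68 CPM in treated mice at 12-weeks. Its groups overlapped. Cxcl11 was lower in untreated mice at 34-weeks, at 1.20, 0.425 and 1.58 CPM against 2.54, 4.53 and 3.04 CPM in WT and 5.20, 1.97 and 3.03 CPM in treated mice. Cxcl11 gave -1.65 ± 0.55 (SE), adjusted p = 0.0206, for untreated against WT and 1.67 ± 0.55 (SE), adjusted p = 0.0225, for treated against untreated mice. The former call was lost without WT mouse 2 (adjusted p = 0.0763), untreated mouse 4 (adjusted p = 0.0536) or untreated mouse 5 (adjusted p = 0.0908), and the latter without untreated mouse 4 (adjusted p = 0.0592), untreated mouse 5 (adjusted p = 0.0974) or treated mouse 9 (adjusted p = 0.115). Library totals ended both calls for Cxcl11 (-1.05, adjusted p = 0.140, and 1.14, adjusted p = 0.120). Cxcl9, singled out after its values were seen, was highest in treated mice, at 27.1, 45.7 and 18.4 CPM at 12-weeks and 15.7, 23.1 and 14.9 CPM at 34-weeks. It was at 5.43, 13.6 and 9.46 and 2.55, 4.68 and 5.66 CPM in untreated and at 5.95, 10.0 and 3.93 and 5.49, 9.22 and 9.93 CPM in WT mice. Every treated mouse lay above every untreated and WT mouse of its time, and the tests gave 1.68 ± 0.42 (SE), adjusted p = 0.00352, and 2.06 ± 0.43 (SE), adjusted p = 0.00114, against untreated mice, and 2.19 ± 0.44 (SE), adjusted p = 0.00375, and 1.12 ± 0.42 (SE), adjusted p = 0.670, against WT mice. The call of Cxcl9 against untreated mice at 12-weeks was lost under scaling to library totals (0.87, adjusted p = 0.0881).

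Of the 4 ligands that are tethered to membranes or stand alone, Cxcl14, Cx3cl1 and Cxcl16 were called higher in untreated than in WT mice at both times and Xcl1 at 12-weeks. Cxcl14, a chemokine of epithelia and stroma, was at 1.13, 2.20 and 2.15 CPM in WT and 36.9, 54.1 and 47.8 CPM in untreated mice at 12-weeks (25.2-fold in untreated against WT mice, log2 fold change 4.66 ± 0.66 (SE), adjusted p = 3.78e-05). Cxcl14 in treated mice was at 4.37, 3.10 and 5.37 CPM. At 34-weeks Cxcl14 was at 2.24, 2.09 and 2.53 CPM in WT and 48.2, 78.3 and 55.5 CPM in untreated mice (26.5-fold, log2 fold change 4.73 ± 0.66 (SE), adjusted p = 2.15e-05). Cxcl14 stood at 2.19, 2.79 and 20.4 CPM in the treated mice of 34-weeks. Each treated mouse lay below each untreated mouse (-3.44 ± 0.62 (SE), adjusted p = 3.10e-04, and -2.83 ± 0.59 (SE), adjusted p = 0.00107), and treated mouse 12 at 34-weeks was nearest to them.

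Cx3cl1, the membrane-bound ligand of CX3CR1, was at 0.268, 0.622 and 0.628 CPM in WT and 8.69, 7.69 and 9.17 CPM in untreated mice at 12-weeks (log2 fold change 4.05 ± 0.68 (SE), adjusted p = 1.77e-04). Cx3cl1 in treated mice was at 0, 0.598 and 0.153 CPM. At 34-weeks Cx3cl1 was at 0, 0.749 and 0.311 CPM in WT and 10.2, 15.4 and 13.9 CPM in untreated mice (log2 fold change 5.10 ± 0.70 (SE), adjusted p = 1.98e-05). Treated mice then had 1.75, 0.874 and 0.545 CPM of Cx3cl1. Treated mice overlapped with WT mice at both times and lay below untreated mice (-4.84 ± 0.75 (SE), adjusted p = 8.48e-05, and -3.63 ± 0.64 (SE), adjusted p = 2.45e-04). Of 4 cholangiocyte markers, Epcam and Sox9 were called higher in untreated than in WT mice at 12-weeks, and Krt19 and Krt7 were not. At 34-weeks 4 of 4 were called higher. The median log2 fold change of these markers in treated against WT mice was -0.19 and -0.05 at the respective times. Their sum was 9.32 to 18.7 CPM in WT, 27.2 to 55.6 in untreated and 8.66 to 10.9 in treated mice at 12-weeks. It was 6.84 to 12.7, 37.0 to 72.9 and 9.67 to 18.4 CPM at 34-weeks, and no marker was at 0 in any group. Their part in the levels of Cx3cl1, Cxcl14 and Ccl20 was not tested.

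Cxcl16, the membrane-bound ligand of CXCR6 that also binds oxidised lipoprotein, was at 6.70, 8.42 and 5.29 CPM in WT and 44.5, 78.6 and 48.8 CPM in untreated mice at 12-weeks (log2 fold change 3.07 ± 0.34 (SE), adjusted p = 2.62e-06). Cxcl16 in treated mice was at 28.3, 20.6 and 13.2 CPM. At 34-weeks Cxcl16 was at 10.7, 7.76 and 6.34 CPM in WT and 60.9, 81.9 and 41.4 CPM in untreated mice (log2 fold change 2.89 ± 0.33 (SE), adjusted p = 3.07e-06). Cxcl16 in treated mice was then at 10.4, 9.34 and 10.6 CPM. The 3 groups did not overlap at 12-weeks, where treated mice stood above WT (1.60 ± 0.32 (SE), adjusted p = 0.00396) and below untreated mice (-1.47 ± 0.31 (SE), adjusted p = 0.00109). At 34-weeks treated mice overlapped with WT mice (0.29 ± 0.32 (SE), adjusted p = 0.971) and were lower than untreated mice (-2.60 ± 0.33 (SE), adjusted p = 1.11e-05).

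Xcl1, which attracts cross-presenting dendritic cells through XCR1, was low in WT mice, at 0.107, 0.191 and 0 CPM at 12-weeks. It was at 0.816, 1.20 and 1.37 CPM in untreated and 2.23, 2.01 and 0.537 CPM in treated mice there, and both were called higher than WT (3.41 ± 0.75 (SE), adjusted p = 0.00178, and 3.90 ± 0.76 (SE), adjusted p = 0.00346). At 34-weeks the levels were 0.354, 0.276 and 0.117, 0.662, 0.773 and 0.588 and 0.406, 0.164 and 0.584 CPM, and neither Lipa-/- group was called against WT (1.45 ± 0.67 (SE), adjusted p = 0.0845, and 0.68 ± 0.69 (SE), adjusted p = 0.965).

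Receptors of the myeloid ligands were higher together with them, and 9 of 16 receptors were called higher in untreated than in WT mice at each time. Ccr1, the receptor of Ccl3, Ccl5, Ccl6 and Ccl9, was at 0.0536, 0.191 and 0.105 CPM in WT and 6.17, 7.96 and 24.0 CPM in untreated mice at 12-weeks (102-fold, log2 fold change 6.68 ± 0.93 (SE), adjusted p = 3.00e-05). This fold was counted against 7 reads of Ccr1 in the 3 WT mice, which limits its precision. Ccr1 in treated mice was at 1.85, 1.14 and 0.460 CPM. At 34-weeks Ccr1 was at 0.354, 0.197 and 0.117 CPM in WT and 11.4, 9.35 and 11.8 CPM in untreated mice (50.1-fold, log2 fold change 5.65 ± 0.85 (SE), adjusted p = 4.65e-05). Ccr1 stood at 0.203, 0.164 and 1.95 CPM in the treated mice of 34-weeks. Treated mice were above WT at 12-weeks (3.19 ± 0.99 (SE), adjusted p = 0.0214). The last call for Ccr1 was lost without WT mouse 1 (adjusted p = 0.0679), WT mouse 3 (adjusted p = 0.0740) or treated mouse 10 (adjusted p = 0.0945). They were lower than untreated mice at both times (-3.49 ± 0.74 (SE), adjusted p = 9.94e-04, and -3.76 ± 0.73 (SE), adjusted p = 5.84e-04).

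Ccr2, carried by inflammatory monocytes, was at 0.322, 0.670 and 0.262 CPM in WT and 9.23, 8.74 and 30.8 CPM in untreated mice at 12-weeks (log2 fold change 5.25 ± 0.76 (SE), adjusted p = 4.69e-05). Ccr2 in treated mice was at 2.33, 3.97 and 0.843 CPM. At 34-weeks Ccr2 was at 1.30, 2.33 and 1.56 CPM in WT and 7.25, 5.91 and 7.50 CPM in untreated mice (log2 fold change 1.98 ± 0.64 (SE), adjusted p = 0.0172). Treated mice then had 2.80, 1.31 and 8.40 CPM of Ccr2. The call of untreated against WT mice at 34-weeks was lost without WT mouse 1 (adjusted p = 0.0590) or WT mouse 3 (adjusted p = 0.0542). Treated mice lay below untreated mice at 12-weeks (-2.74 ± 0.65 (SE), adjusted p = 0.00237) and above WT mice (2.50 ± 0.75 (SE), adjusted p = 0.0184). For Ccr2 the last call was lost without WT mouse 1 (adjusted p = 0.0594), WT mouse 3 (adjusted p = 0.0780), treated mouse 10 (adjusted p = 0.0558) or treated mouse 11 (adjusted p = 0.0929). At 34-weeks treated mouse 12 exceeded all untreated mice, and treated and untreated mice were not called different (-0.71 ± 0.61 (SE), adjusted p = 0.375). Ccr7 and Ccr9, receptors of Ccl19 and Ccl21 and of Ccl25, were at or below 1.47 CPM in every mouse and called in no comparison.

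Cxcr4, the receptor of Cxcl12, was the most abundant receptor per length in untreated mice, with a level of 38.1 ± 15.8 TPM at 12-weeks and 40.8 ± 18.2 TPM at 34-weeks. It was at 0.536, 2.01 and 0.838 CPM in WT and 32.6, 46.5 and 64.9 CPM in untreated mice at 12-weeks (41.9-fold, log2 fold change 5.39 ± 0.69 (SE), adjusted p = 1.35e-05). Cxcr4 in treated mice was at 14.8, 8.59 and 4.37 CPM. At 34-weeks Cxcr4 was at 0.767, 0.906 and 0.701 CPM in WT and 42.7, 50.9 and 20.6 CPM in untreated mice (47.7-fold, log2 fold change 5.58 ± 0.71 (SE), adjusted p = 8.28e-06). Cxcr4 in treated mice was then at 1.18, 1.75 and 7.00 CPM. The treated mice lay between WT and untreated mice without overlap at both times. They were called against WT at 12-weeks (3.00 ± 0.65 (SE), adjusted p = 0.00511) and not at 34-weeks (2.07 ± 0.66 (SE), adjusted p = 0.495), and were lower than untreated mice (-2.39 ± 0.59 (SE), adjusted p = 0.00298, and -3.51 ± 0.62 (SE), adjusted p = 2.53e-04).

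Cx3cr1, found on monocytes and some macrophages, was at 0.536, 0.335 and 0.419 CPM in WT and 13.8, 11.7 and 12.1 CPM in untreated mice at 12-weeks (log2 fold change 4.85 ± 0.57 (SE), adjusted p = 5.09e-06). Cx3cr1 in treated mice was at 1.94, 2.28 and 0.843 CPM. At 34-weeks Cx3cr1 was at 0.295, 1.42 and 1.56 CPM in WT and 7.82, 18.7 and 7.31 CPM in untreated mice (log2 fold change 3.32 ± 0.50 (SE), adjusted p = 4.92e-05). Cx3cr1 stood at 2.97, 1.48 and 2.37 CPM in the treated mice of 34-weeks. Treated mice were above WT at 12-weeks (1.98 ± 0.57 (SE), adjusted p = 0.0155), a call lost without WT mouse 3 (adjusted p = 0.0595), treated mouse 10 (adjusted p = 0.0589) or treated mouse 11 (adjusted p = 0.0603), and under library totals (1.60, adjusted p = 0.0504). In Cx3cr1 they lay below untreated mice at both times (-2.88 ± 0.50 (SE), adjusted p = 2.25e-04, and -2.30 ± 0.48 (SE), adjusted p = 9.72e-04). Cxcr1, a neutrophil receptor, had no read in the WT mice of 12-weeks and 2.13, 1.40 and 0.727 CPM in untreated mice, at least 9.22-fold higher against 3 reads in each WT library (adjusted p = 2.46e-04). At 34-weeks it was at 0.0590, 0.0394 and 0 CPM in WT, from 2 reads, 3.94, 3.25 and 1.14 CPM in untreated and 0.122, 0.219 and 0 CPM in treated mice (adjusted p = 9.64e-05 and, for treated against untreated mice, 4.35e-04). Cxcr2, its neighbour on chromosome 1 and described after its values were seen, had means of 1.01 ± 0.283 CPM in WT, 4.10 ± 2.26 CPM in untreated and 1.82 ± 0.410 CPM in treated mice at 12-weeks. Cxcr2 in untreated against WT mice gave 2.01 ± 0.46 (SE), adjusted p = 0.00248, at 12-weeks and 1.51 ± 0.45 (SE), adjusted p = 0.0107, at 34-weeks, the second lost without WT mouse 3 (adjusted p = 0.0536). Treated mice were below untreated mice in Cxcr2 at 12-weeks (-1.16 ± 0.45 (SE), adjusted p = 0.0392). The last call for Cxcr2 was lost without untreated mouse 5 (adjusted p = 0.0718), untreated mouse 9 (adjusted p = 0.215), treated mouse 10 (adjusted p = 0.110), treated mouse 11 (adjusted p = 0.0730) or treated mouse 12 (adjusted p = 0.0522). A fit of only the 6 mice compared ended it too (-1.15, adjusted p = 0.0906).

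Cxcr3, the T cell receptor of Cxcl9, Cxcl10 and Cxcl11, was at 0.375, 0.431 and 0.314 CPM in WT and 1.35, 1.83 and 2.14 CPM in untreated mice at 12-weeks (2.23 ± 0.53 (SE), adjusted p = 0.00329). Cxcr3 in treated mice was at 0.0972, 0.706 and 0.460 CPM. Untreated mice were again higher than WT at 34-weeks (1.66 ± 0.50 (SE), adjusted p = 0.0118). For Cxcr3 the last call was lost without WT mouse 1 (adjusted p = 0.0511). Treated mice were lower than untreated mice at 12-weeks (-1.97 ± 0.54 (SE), adjusted p = 0.00587). Cxcr6, the receptor of Cxcl16 on T cells and NKT cells and described after its values were seen, was highest in treated mice at 12-weeks, with a mean of 3.00 ± 2.62 CPM against 0.515 ± 0.427 CPM in WT and 0.916 ± 0.491 CPM in untreated mice. Its calls (2.50 ± 0.72 (SE), adjusted p = 0.0157, against WT, and 1.69 ± 0.68 (SE), adjusted p = 0.0462, against untreated mice) were lost, the first without WT mouse 3 (adjusted p = 0.0697) or treated mouse 10 (adjusted p = 0.145) and the second without untreated mouse 5 (adjusted p = 0.148), untreated mouse 9 (adjusted p = 0.0969) or treated mouse 10 (adjusted p = 0.422). Library totals (0.77, adjusted p = 0.306) and upper quartile factors (1.62, adjusted p = 0.0553) ended the second call as well. So did edgeR with length offsets (1.65, adjusted p = 0.0549), no filter on low counts (1.64, adjusted p = 0.0506) and only the 6 mice compared (1.73, adjusted p = 0.0737). Xcr1, the receptor of Xcl1, was called in no comparison (1.13 ± 0.52 (SE), adjusted p = 0.0964, and 0.20 ± 0.51 (SE), adjusted p = 0.781, for untreated against WT mice). Dendritic cell markers summed to 3.72 to 5.84 CPM in WT, 26.3 to 70.5 in untreated and 8.43 to 13.9 in treated mice at 12-weeks. For 34-weeks the sums were 5.25 to 8.20, 33.3 to 76.4 and 9.12 to 14.0 CPM. Of the 6, 4 were called higher in untreated mice at 12-weeks (Flt3, Itgax, Batf3 and Siglech) and 2 at 34-weeks (Itgax and Siglech). Zbtb46 and Clec9a were called at neither time. Itgax made up most of the sum in untreated mice, at 61.1, 58.0 and 19.1 CPM at 12-weeks against 0.268, 0.0957 and 0.262 CPM in WT. The sum therefore mainly follows this 1 gene.

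**Figure D5:**
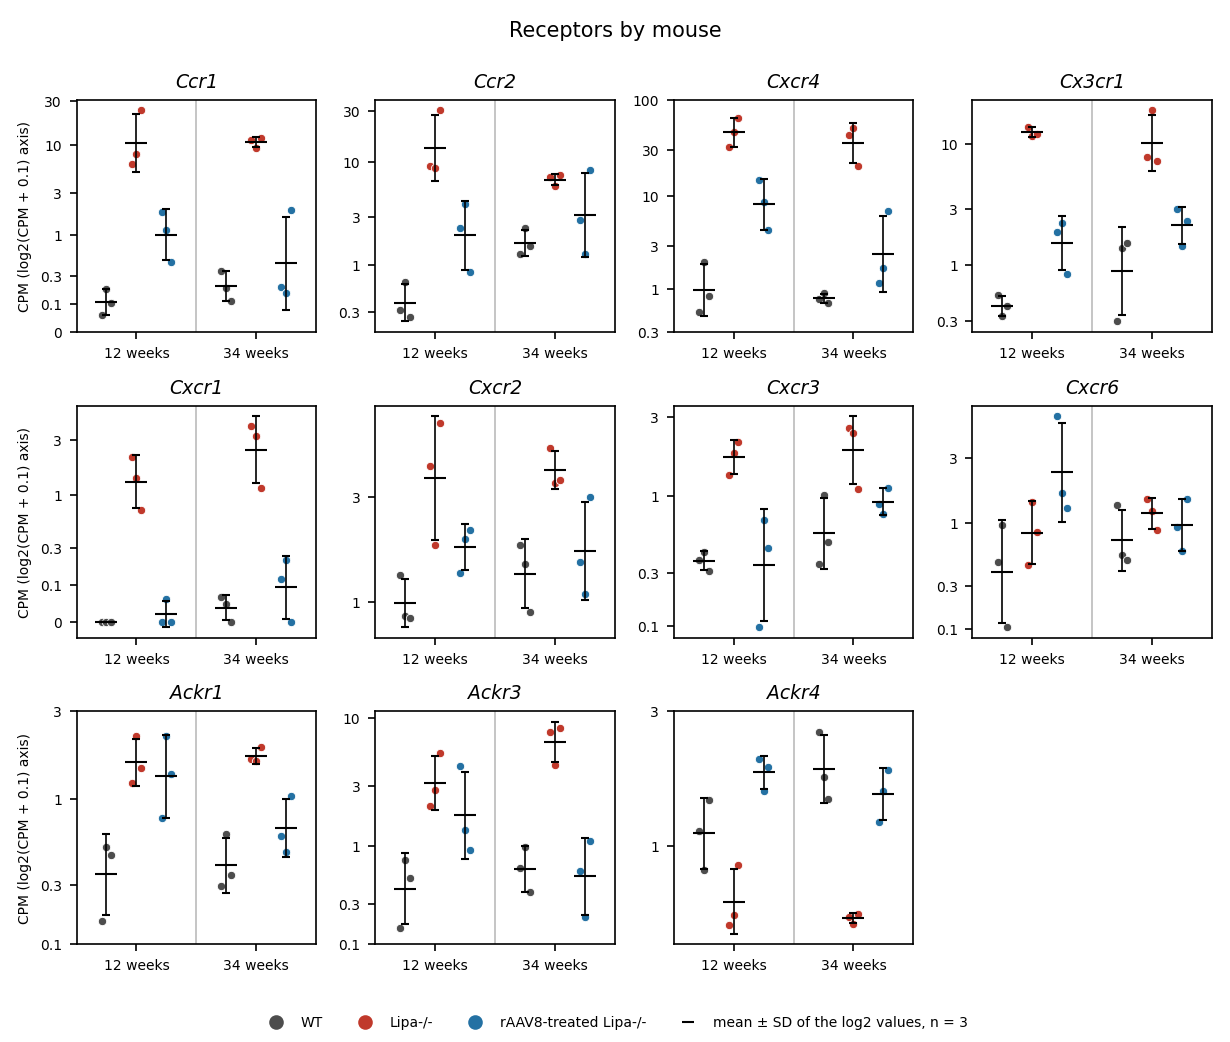
CPM of 11 receptors in each of the 18 mice, drawn as in the plot of the 12 ligands, with bars for the mean ± SD of the log2 values (n = 3). Ccr1, Cxcr4, Cx3cr1 and Cxcr1 are higher in every untreated Lipa-/- mouse than in any WT mouse of the same time, and Ackr4 at 34-weeks is lower.

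The atypical receptors split. Ackr1, which carries chemokines across venular endothelium, was at 0.161, 0.526 and 0.471 CPM in WT and 1.24, 2.21 and 1.50 CPM in untreated mice at 12-weeks. Ackr1 in treated mice was at 0.777, 2.23 and 1.38 CPM. Ackr1 was called higher in untreated mice at both times (2.07 ± 0.50 (SE), adjusted p = 0.00375, and 2.00 ± 0.49 (SE), adjusted p = 0.00307). Treated mice were called higher than WT at 12-weeks (1.92 ± 0.51 (SE), adjusted p = 0.0111), a call lost without treated mouse 11 (adjusted p = 0.0528). In Ackr1 they were lower than untreated mice at 34-weeks (-1.27 ± 0.47 (SE), adjusted p = 0.0407). The last call for Ackr1 was lost without untreated mouse 4 (adjusted p = 0.0673), untreated mouse 5 (adjusted p = 0.0665), untreated mouse 6 (adjusted p = 0.0912), treated mouse 9 (adjusted p = 0.114) or treated mouse 11 (adjusted p = 0.141). Length offsets in edgeR (-1.27, adjusted p = 0.0519) and no filter on low counts (-1.26, adjusted p = 0.0712) ended it too. Ackr3, the scavenger of Cxcl12, was at 0.649, 0.985 and 0.389 CPM in WT and 7.85, 4.41 and 8.38 CPM in untreated mice at 34-weeks. Ackr3 in treated mice was at 0.610, 0.219 and 1.09 CPM. Ackr3 was higher in untreated mice at 12-weeks (2.80 ± 0.67 (SE), adjusted p = 0.00312) and 34-weeks (3.34 ± 0.65 (SE), adjusted p = 4.78e-04). Its treated mice were lower than untreated mice at 34-weeks (-3.38 ± 0.65 (SE), adjusted p = 5.35e-04) and higher than WT at 12-weeks (2.11 ± 0.68 (SE), adjusted p = 0.0249). For Ackr3 the last call was lost without WT mouse 1 (adjusted p = 0.0885), WT mouse 3 (adjusted p = 0.0736) or treated mouse 10 (adjusted p = 0.215), and under library totals (1.68, adjusted p = 0.0597). A fit of only the 6 mice compared ended it too (2.10, adjusted p = 0.0535).

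Ackr4, which scavenges Ccl19, Ccl21 and Ccl25, was the only atypical receptor of the 4 called lower in untreated mice. It was at 2.54, 1.77 and 1.48 CPM in WT and 0.536, 0.502 and 0.551 CPM in untreated mice at 34-weeks (log2 fold change -1.85 ± 0.36 (SE), adjusted p = 4.92e-04). Ackr4 in treated mice was at 1.22, 1.58 and 1.87 CPM. Every untreated mouse lay below every other mouse of 34-weeks. The difference at 12-weeks did not pass (-0.85 ± 0.36 (SE), adjusted p = 0.0746). Treated mice were higher than untreated mice at both times (1.54 ± 0.36 (SE), adjusted p = 0.00223, and 1.54 ± 0.36 (SE), adjusted p = 0.00250). Scaled to library totals, the 12-week call for Ackr4 was lost (0.65, adjusted p = 0.132). Ackr2, a scavenger of inflammatory CC ligands, was called in no comparison. Endothelial markers summed to 98.3 to 144 CPM in WT, 54.6 to 63.5 in untreated and 107 to 165 in treated mice at 12-weeks. Later, at 34-weeks, they summed to 126 to 142, 70.0 to 107 and 72.8 to 121 CPM. Of these 5 markers 1 was called higher (Lyve1) and 2 lower (Clec4g and Kdr) in untreated mice at each time.

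Kupffer cell markers did not follow the myeloid members. At 12-weeks 2 of 6 were called higher (Cd5l and Marco) and 1 lower (Timd4) in untreated than in WT mice, and at 34-weeks 3 were lower (Clec4f, Timd4 and Folr2). The summed level was 92.1 to 219 CPM in WT, 70.4 to 381 in untreated and 352 to 528 in treated mice at 12-weeks, and 155 to 314, 52.8 to 334 and 139.9 to 452 at 34-weeks.

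Between 12- and 34-weeks no member was called in WT or untreated mice, where few genes of any kind were called. The median absolute log2 fold change was 0.48 for the members against 0.22 over all genes in WT mice. In untreated mice it was 0.40 against 0.34. In WT mice 0 members were called by edgeR in either direction (against 0.220% of genes higher and 0.103% lower), with 3 higher and 1 lower at an unadjusted p under 0.05 and 0 in DESeq2. In untreated Lipa-/- mice 0 were called as well (against 0.0344% and 0.461%), with 1 higher and 1 lower at an unadjusted p under 0.05 and 0 in DESeq2. Treated mice had 0 members higher (against 17.5%) and 8 lower at 34-weeks than at 12-weeks (18.2%, against 14.5%), and 2 higher and 13 lower at an unadjusted p under 0.05. The 8 were Ccl7, Ccl9, Ccl25, Ccl27a, Cxcl1, Cxcl16, Xcl1 and Ackr3. The largest of these differences in log2 terms were those of Cxcl1 (-3.71 ± 1.14 (SE), adjusted p = 0.0152), Ccl9 (-2.69 ± 0.52 (SE), adjusted p = 0.00168) and Ccl7 (-2.51 ± 0.87 (SE), adjusted p = 0.0270). Scaled to library totals, the same comparison gave 5 members higher and 3 lower, and the count was 2 without treated mouse 10 of 12-weeks, 3 without treated mouse 11 of 34-weeks, 12 without treated mouse 12 of 34-weeks and 13 without treated mouse 12 of 12-weeks.

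Whether the difference from WT itself changed between the times was tested as an interaction. For untreated mice 0 members passed in edgeR (against 0.0206% of genes higher and 0.0413% lower), with 2 higher and 4 lower at an unadjusted p under 0.05 and 1 of each in DESeq2 (Cxcl5 higher and Ccr2 lower at 34-weeks). For treated mice 0 members were higher (against 8.58%) and 5 lower (11.4%, against 9.83%), with 0 higher and 8 lower at an unadjusted p under 0.05 and 0 and 7 in DESeq2. These 5 were Cxcl1 (difference of log2 fold changes -4.59 ± 1.53 (SE), adjusted p = 0.0461), Xcl1 (-3.22 ± 1.04 (SE), adjusted p = 0.0418), Ccl27a (-2.70 ± 0.57 (SE), adjusted p = 0.0237), Ccl9 (-2.67 ± 0.70 (SE), adjusted p = 0.0260) and Cxcl16 (-1.31 ± 0.45 (SE), adjusted p = 0.0498). Each stood further above WT at 12-weeks than at 34-weeks, and the count ran from 0 without WT mouse 1 or 3 of 12-weeks or treated mouse 9 of 34-weeks to 6 without treated mouse 12 of 34-weeks.

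Many genes that act beside and below these receptors were also higher in untreated mice. Over all genes tested, 20.2% and 20.5% were called higher in untreated than in WT mice at 12- and 34-weeks. In treated against untreated mice 25.3% and 18.6% were lower, and in treated against WT mice at 12-weeks 13.6% were higher and 12.0% lower. Of 26 genes of chemokine receptor signalling, 20 were called higher and 1 lower in untreated than in WT mice at 12-weeks and 21 higher at 34-weeks, with medians of 3.37 and 2.56 on the log2 scale. Those called higher included the phosphoinositide 3-kinase subunit Pik3cg, the Rac exchange factor Dock2 and the arrestin Arrb2. Grk5 was lower at 12-weeks, and Gnai3, Gnb2, Grk6 and Rac1 were called at neither time. The part of leukocyte numbers in these levels was not tested. Treated mice had 10 higher and 2 lower than WT mice at 12-weeks, a median of 0.42 against WT at 34-weeks, and 21 and 20 lower than untreated mice at the respective times. Of 17 tested genes of leukocyte adhesion, among them the integrin chain Itgb2 and its ligand Icam1, untreated mice had 11 higher than WT mice at 12-weeks and 10 at 34-weeks, with medians of 3.27 and 2.23, and 11 were lower in treated than in untreated mice at each time. Of 8 chemokine relatives that the symbol rule does not cover, Pf4, Ccrl2, Cmklr1 and Cd74 were higher in untreated mice at both times and Dpp4, which trims chemokines, was lower at 34-weeks.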

How the data were processed

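Poly-A RNA from 18 livers, 3 mice in each of 6 groups, was sequenced, and groups were taken from the sample labels. The authors estimated reads per gene with Salmon against an Ensembl transcriptome of GRCm39 and summed transcripts with tximport. The deposited table holds estimated counts that were not scaled, of which 19.4% were not whole. The authors also deposited TPM (transcripts scaled by length and library), and a mean transcript length per gene and mouse, whose unit is bases. A deposited table of the authors' own group comparisons (DESeq2 1.40.1 in R 4.3.0, per the labels) holds fold changes and p-values and was not used.

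Here the estimated counts were rounded to whole numbers, genes with more than 100 reads over all mice were kept, and edgeR 4.0.16 (R 4.3.3) fitted 6 group means to all 18 mice with TMM factors. Its quasi-likelihood test was two-sided, and p-values were adjusted by Benjamini-Hochberg over all 14533 genes within each of 11 comparisons. CPM were computed from the counts with TMM factors, and mean ± SD are over 3 mice. Each mouse is a separate animal, and livers of treated and untreated mice were not paired. Where a group had no read, a fold was counted against 3 reads in each library, and where it had 1 to 3 reads no fold is given. These limits cover counting error only. The tests were checked on simulated counts.

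The members, the role groups and the marker and pathway lists were chosen with earlier results of these data known. The rule for members shown by mouse named 34 of the 44: in each role group up to 4 members called in untreated against WT mice with the largest log2 fold change and the member with the highest mean TPM, those called in treated against WT mice at 34-weeks, and those called lower in untreated mice, with a mean of at least 1 CPM in some group for those chosen by a call against WT mice. 1 of them is counted but not reported here. Others are given by counts, or named as chosen after their values were seen. Alternatives were DESeq2 1.42.0 and edgeR with length offsets, upper quartile factors, library totals, other filters on low counts, only the mice compared, the adjusted p alone, and leaving out each mouse. Gene positions came from GENCODE for GRCm39 and promoters from RefSeq for GRCm38.p6, and coordinates of the 2 builds were kept apart. The authors let Salmon infer the library type, which was not checked here.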

Additional observations from a re-analysis of the deposited data

Results flagged for a closer look

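The difference between treated Lipa-/- and WT mice was not the same at 12- and 34-weeks for 5 ligands, by the interaction test in edgeR. These 5 lower members are 11.4% of the 44, near the 9.83% of all genes tested. The log2 fold change against WT was lower at 34-weeks by -4.59 for Cxcl1 (adjusted p = 0.0461), -3.22 for Xcl1 (adjusted p = 0.0418), -2.70 for Ccl27a (adjusted p = 0.0237), -2.67 for Ccl9 (adjusted p = 0.0260) and -1.31 for Cxcl16 (adjusted p = 0.0498). All 5 stood above WT at 12-weeks in treated mice, with log2 fold changes of 1.60 to 4.02. The groups hold 3 mice, treated mouse 10 of 12-weeks was the highest of its group in all 5 ligands, and without it 1 of the 5 passed. Under library totals 2 of the 5 passed, Ccl9 and Ccl27a. Study code and time cannot be told apart in this comparison.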

How the results depend on the processing

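The counts of members called in untreated against WT mice and in treated against untreated mice stayed within 1.5 times of the value reported under every alternative run. Without one mouse they ran from 25 to 28 (26 reported) and 26 to 30 (30 reported) for untreated against WT mice at 12- and 34-weeks, and from 21 to 23 (24 reported) and 22 to 26 (26 reported) for treated against untreated mice. Without untreated mouse 5 of 12-weeks, which carried another study code, 25 of the 26 calls remained and Cxcl13 was lost. Counts against WT in treated mice were less stable. At 12-weeks the count of 20 was 13 with only the 6 mice compared, where 7 of the 20 fell under the read limit and were not tested, and 9 to 23 without one mouse. At 34-weeks the count of 1 was 2 with DESeq2 and with no filter (Ccl5 joined Ccl3), 0 with only the 6 mice compared (Ccl3 fell under the read limit), and 0 to 1 without one mouse. For treated mice over time, the count of 8 was 14 with DESeq2, 5 with upper quartile factors and 2 to 13 without one mouse. The interaction of treated mice (5) gave 2 under library totals, 3 with no filter and 0 to 6 without one mouse, and that of untreated mice (0) gave 2 with DESeq2 and 0 to 0 without one mouse. The time comparisons of WT and untreated mice gave 0 throughout.

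Library totals in place of TMM shifted the all-gene median (log2) by 0.47 and 0.63 in untreated against WT mice, by -0.39 in treated against WT mice at 12-weeks, by -0.87 and -0.54 in treated against untreated mice, and by 0.63 in treated and 0.31 in untreated mice over time. Under this scaling the median of the members over time turned from -0.06 to 0.25 in untreated and from -0.41 to 0.21 in treated mice. Of 6668 values of single members under alternatives, 0 changed sign past the threshold, 182 lost and 114 gained a call. The causes were not tested.

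Mouse numbers were shared by WT mice of both times and by treated mice 11 and 12, which are different animals. Correlations of same-numbered mice were 0.08, -0.24 and 0.46 in WT and -0.08 and -0.25 in treated mice, so the numbers do not pair them. With the number as a replicate block, 2 members were called in treated mice over time (Ccl9 and Ccl27a) and 0 in WT mice. WT groups held 0 to 4 reads of Ccl3, Ccl20 and Cxcr1, 6 of Ccl7 at 34-weeks and 7 of Ccr1 at 12-weeks. These low numbers limit the precision of folds against WT mice.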
